A study of Mus musculus with 27 samples.

Results

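The copy number of DNA before any drug was examined in 3 medulloblastomas, here called vehicle tumours 1, 2 and 3, out of 27 samples in the series (21 of RNA and 6 of DNA). Each tumour had the genotype Ptch+/-p53-/-, was grown as an allograft in nude mice, which lack T cells, and came from a mouse given vehicle for 26 days with no dose of drug. The labels call these tumours sensitive. The members are the 3 two-colour arrays with these labels, on which tumour DNA was labelled with Cy5 and DNA from the liver of a wildtype mouse with Cy3. The same liver sample served on every array. The other 3 DNA arrays held tumours of the same genotype and host that were labelled resistant to the drug LDE225, a Smo antagonist, at 40, 80 and 160 mg/kg/day for 26 days, with 1 tumour per dose. The labels of the last disagree, since its title carries the word vehicle while its status, treatment and dose say resistant, and it was grouped by the latter. The labels do not say whether the vehicle tumours descend from 1 original tumour, nor which strain gave the liver, and grafts also hold cells of the host mouse, whose share was not measured.

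Medulloblastoma is a tumour of the cerebellum, and mice with 1 working copy of Ptch1 develop it from granule neuron precursors. Ptch1 holds back the receptor Smo, and loss of that brake turns on the Gli factors of the Hedgehog pathway. Loss of p53, which Trp53 encodes, removes a response to DNA damage and lets cells with altered chromosomes survive. An array of this kind reports, for each short probe, the ratio of tumour to reference DNA. In cells that all carry it, 3 copies against 2 give a log2 ratio of 0.58 and 1 copy against 2 gives -1.

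Values were log2 ratios of tumour over liver, centred on the median of the autosomes of each array, at 220569 probes of autosomes 1 to 19 in build mm8. The standard deviation (SD) of noise between neighbouring probes was 0.132, 0.198 and 0.176 for vehicle tumours 1, 2 and 3, and 0.318, 0.280 and 0.462 for the resistant ones at 40, 80 and 160 mg/kg/day. On each array 99.8% to 99.9% of probes exceeded background clearly. All 6 arrays were scanned on the same day, on 1 slide each. With 1 array per tumour and 3 tumours, the number of arrays limits the precision. P-values measure the spread between these 3 arrays and leave out the spread of the single liver sample.

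The 3 vehicle tumours carried the same copy-number profile. It consisted of a gain of nearly all of chromosome 6, an alternation of losses and gains along chromosome 16, and 22 short regions elsewhere. Other autosomes lay near 0. Across 2396 windows of 1 Mb, the arrays of the vehicle tumours correlated with each other at Pearson's r of 0.989 to 0.995, and at 0.962 to 0.982 over the 2153 windows outside chromosomes 6 and 16. These correlations are descriptions, since the windows of a chromosome are not independent and all arrays share the liver DNA and the probes. Between vehicle and resistant arrays r was 0.584 to 0.713, and 0.269 to 0.373 without chromosomes 6 and 16. The highest and lowest of the 3 vehicle arrays never lay 0.3 or more apart in a window, the widest gap being 0.13, in chr8:5000001-6000000. Among the noisier resistant arrays, 392 windows (16.4%) had such a gap, and the widest was 2.18.

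**Figure D1:**
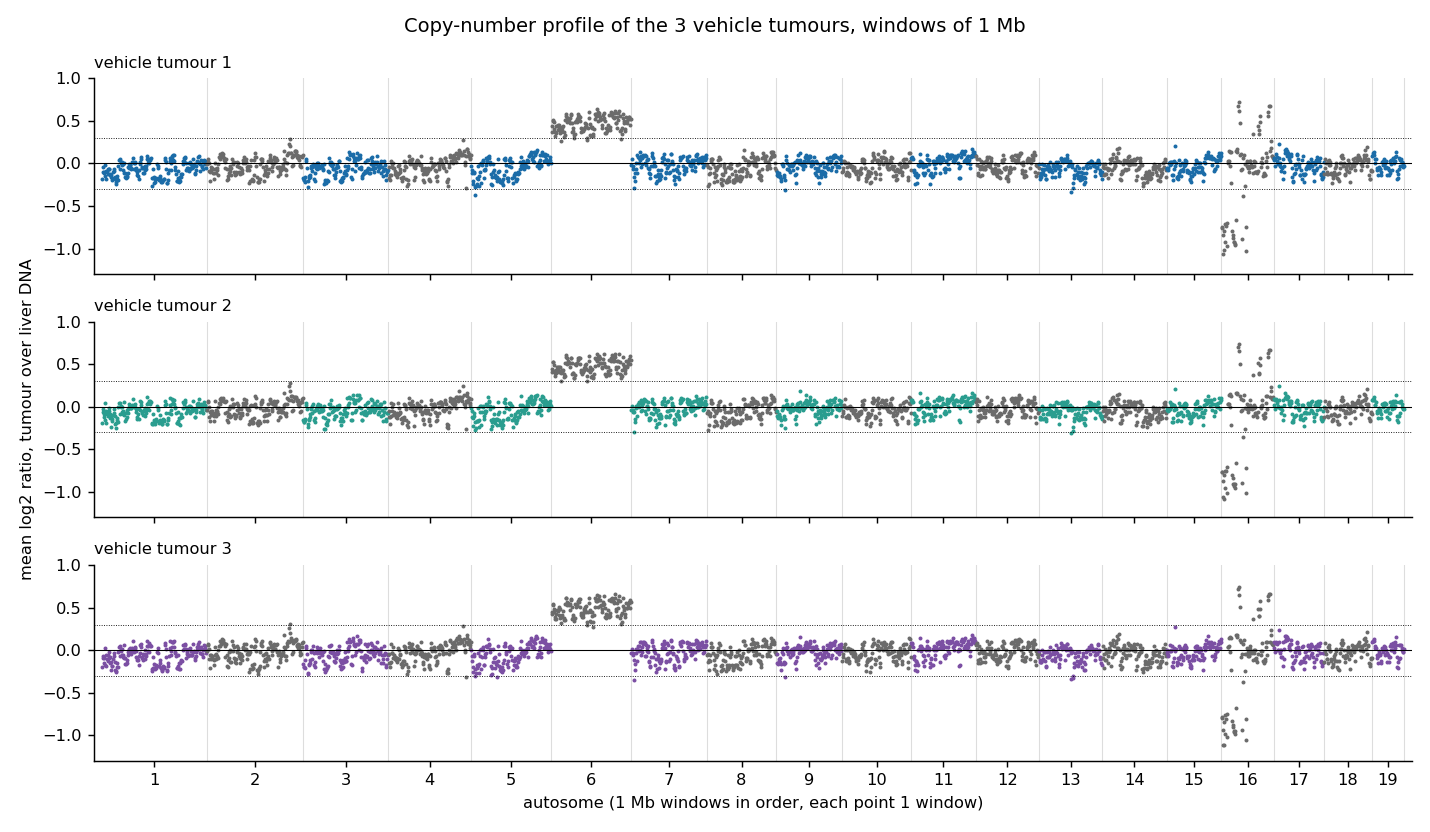
Mean log2 ratio of tumour over liver DNA (vertical axis) in 1 Mb windows placed in order along autosomes 1 to 19 (horizontal axis), with 1 panel per vehicle tumour; dotted lines mark 0.3 and -0.3, and colour alternates between chromosomes. In each panel the 147 windows of chromosome 6 sit between 0.27 and 0.67, and chromosome 16 alone holds windows below -0.4 and above 0.67.

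Windows were tested with limma, as the mean of the 3 arrays against 0. At an adjusted p below 0.05, 897 windows (37.4%) were higher and 1153 (48.1%) were lower than the liver. With normexp-corrected signals, a different background correction, 423 were higher and 1210 were lower. Centred on the mode, 1015 were higher and 936 were lower, so which direction had more calls depends on where 0 is placed. Most of the calls with the first settings were small. With a mean of 0.3 or more in size also required, 159 windows (6.64%) were higher and 26 (1.09%) were lower. Of the 159, 145 were on chromosome 6 and 14 on chromosome 16. Of the 26, 23 were on chromosome 16. The other 3 had log2 ratios of -0.37, -0.28 and -0.31 in tumours 1, 2 and 3 (chr5:11000001-12000000, 8 probes), of -0.29, -0.29 and -0.35 (chr7:7000001-8000000, 8 probes), and of -0.33, -0.31 and -0.34 (chr13:61000001-62000000, 102 probes).

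The profile was also cut into segments with breakpoints common to the 3 arrays. A segment was called a shared gain or loss when its mean was 0.3 or more in size, with the same sign, on all 3 arrays, over at least 5 probes. Of 624 segments, 55 were shared gains and 29 shared losses. Adjacent ones were joined into 38 regions, of which 20 were gains and 18 losses. They covered 160.8 Mb gained (6.69%) and 25.1 Mb lost (1.04%) of 2403 Mb. The segments come from these same values, so their means are descriptions with no test. Both the number of regions and their length depended on the settings. A threshold of 0.2 gave 57.5 Mb lost. Leaving out vehicle tumour 1 gave 13 gained regions, and segmenting each array by itself gave 9 gained and 9 lost regions common to all 3.

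Chromosome 6 was the one autosome that moved as a whole. Its median log2 ratio was 0.48 in tumour 1, 0.48 in tumour 2 and 0.50 in tumour 3, with a mean of 0.49 ± 0.0073 (SD, n = 3; limma, adjusted p = 6.65e-08 over 19 autosomes). The 3 values were nearly alike, and the resistant tumours gave 0.49, 0.45 and 0.48. The means of the other 18 autosomes in vehicle tumours lay between -0.045 and 0.036, and none varied between the tumours by an SD above 0.008. In all, 16 of 19 autosome medians (84.2%) passed limma, 2 higher (6 and 11) and 14 lower. That split depends on where 0 is placed, since centring on the mode gave 7 higher and 4 lower. Chromosome 11 had medians of 0.039, 0.032 and 0.038. The resistant tumours differed more among themselves, with medians from -0.74 to 0.23 over the 18 other autosomes.

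**Figure D2:**
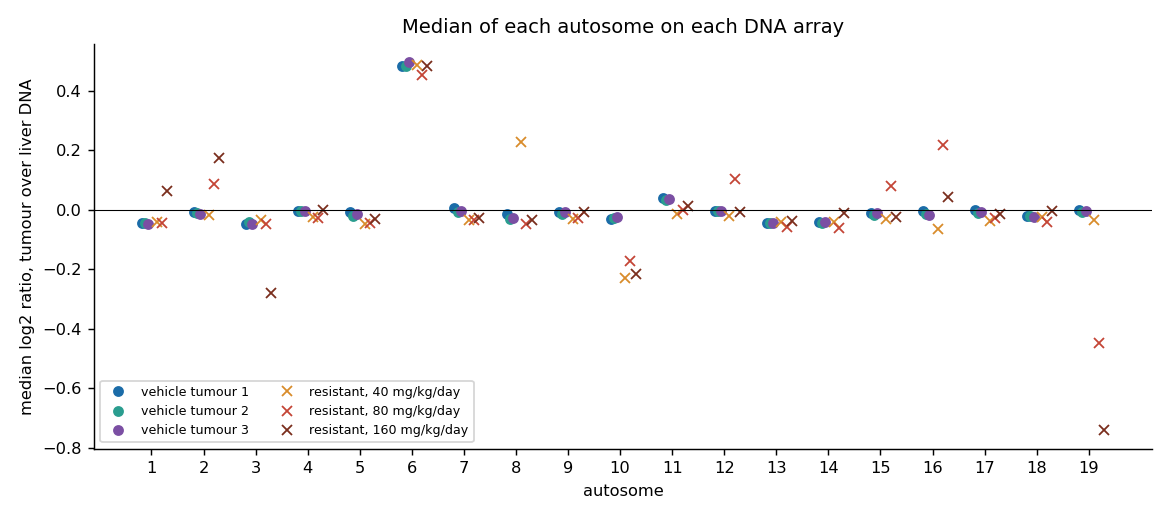
Median log2 ratio of tumour over liver DNA (vertical axis) for each autosome (horizontal axis); circles are vehicle tumours 1 to 3 and crosses are resistant tumours by dose, with no error bars since each mark is 1 array. The circles lie on top of each other at every autosome and leave 0 visibly at chromosome 6 only, where the crosses also lie between 0.45 and 0.49.

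The gain of chromosome 6 ran as chr6:3379908-19485892 and chr6:21595954-149520662, together 144 Mb and 13829 probes. The first stretch had log2 ratios of 0.44, 0.46 and 0.47 in tumours 1, 2 and 3, and the second of 0.49, 0.50 and 0.51. Between them, chr6:19517614-21585835 stood just under the threshold at 0.30 in tumour 1, with 0.34 and 0.32 in the others. It holds most of Kcnd2, a potassium channel subunit, whose 67 probes averaged 0.31, 0.35 and 0.32. So the break between the stretches is a matter of the threshold and not a return to 0. Within the gain, 33 segments ranged from 0.33 to 0.65 with a median of 0.48. The highest, chr6:134543616-135323259, measured 0.63, 0.65 and 0.68. One of the lowest, chr6:67627808-70640803, measured 0.31, 0.35 and 0.34.

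The unevenness within the gain went along with gene content. On chromosome 6, windows where at most 50.8% of probes carry a gene name averaged 0.42, and those where at least 80.5% do averaged 0.49 (147 windows, Pearson's r = 0.37, Spearman's rho = 0.30, a description across windows). The same was seen on autosomes other than 6 and 16, at -0.11 for shares up to 48.4% and -0.014 for shares from 79.0% (2153 windows, r = 0.43, rho = 0.37). This difference was thus present where no shared gain lay, and its part in the steps on chromosome 6 was not tested.

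Among genes with known roles in this tumour, chromosome 6 carried Smo, the Hedgehog receptor that the drug blocks, at 0.58, 0.61 and 0.71 over 4 probes in tumours 1, 2 and 3. Ccnd2, a D-type cyclin that drives the cell cycle in granule neuron precursors, measured 0.64, 0.70 and 0.70 over 4 probes. Both genes lay at or somewhat above the level of their segments, which averaged 0.55 and 0.63. The receptor tyrosine kinase Met (0.48, 0.50 and 0.55), the kinase Braf (0.56, 0.55 and 0.54) and the histone methyltransferase Ezh2 (0.46, 0.61 and 0.57) stood within the range of the rest of the chromosome. Each of these values is from few probes, between 4 and 11 per gene.

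Chromosome 16 did not move as a whole. Its medians were -0.0050, -0.015 and -0.019, while the chromosome passed through 14 shared regions, 4 losses (22.1 Mb) and 10 gains (13.5 Mb). Segments were sorted into losses, gains and neither by the threshold of 0.3. The 14 lost segments lay between -1.05 and -0.71 (median -0.87), the 13 gained segments between 0.41 and 1.09 (median 0.60), and the 27 segments that were neither between -0.18 and 0.29 (median 0.017). No 2 of these ranges overlapped, which the threshold largely fixes, so separate levels cannot be read from it. The last of the losses ended at position 48807176, and 8 of the gains lay from position 61122798 onwards.

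The first and longest loss was chr16:3478234-13917372 (1194 probes), at -0.83, -0.85 and -0.89 in tumours 1, 2 and 3. It holds Crebbp, which encodes a histone acetyltransferase and measured -0.87, -0.89 and -0.88 over 20 probes, with an SD of 0.012 between tumours. Grin2a, an NMDA receptor subunit, Abat, which breaks down the transmitter GABA, and Adcy9, an adenylyl cyclase, are among its genes with most probes. The deepest segment, chr16:5312053-8281470, holds the gene of the neuronal splicing factor A2bp1 and stood at -1.02, -1.04 and -1.09 over 270 probes. A second deep segment, chr16:11582062-13027288, includes the nucleotide excision repair gene Ercc4 and stood at -0.95, -0.97 and -0.99. Immune regulators in the same loss were Socs1, a brake on cytokine signalling (1 probe, at -0.83, -0.89 and -0.94), and Ciita, the activator of MHC class II genes, which the files name C2ta (6 probes, at -0.73, -0.78 and -0.76).

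The second loss, chr16:21657859-29833671 (797 probes), stood at -0.88, -0.87 and -0.90. It holds Trp63, the p53 family member, at -0.99, -0.88 and -0.93 over 11 probes. Bcl6, a transcriptional repressor, measured -0.69, -0.86 and -0.91 over 4 probes, the widest spread between tumours of these genes (SD 0.11). The ETS factor Etv5 had -0.71, -0.78 and -0.76, and the RNA-binding protein gene Igf2bp2 had -0.84, -0.92 and -0.94. Lpp (89 probes) and Fgf12 (77 probes), a LIM-domain and a fibroblast growth factor family gene, averaged -0.89 and -0.95 over the 3 tumours.

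Both other losses were short. The loss chr16:41032365-42336078 measured -0.90, -0.91 and -0.95 and contains the neuronal adhesion gene Lsamp (80 probes, mean -0.92 ± 0.032, n = 3) and the growth cone gene Gap43 (14 probes, mean -0.95 ± 0.066, n = 3). The loss chr16:46619332-48807176 measured -0.94, -0.92 and -0.998 and contains Dppa2 and Dppa4, genes of pluripotent cells, and the resistin-like genes Retnla and Retnlb.

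Between the Trp63 loss and the Lsamp loss lay the highest gain. It ran as chr16:33107450-36129908 (373 probes), at 0.69, 0.72 and 0.72, and after a dip of 16 probes at 0.28, 0.29 and 0.31 went on as chr16:36286498-36853112, at 0.59, 0.60 and 0.61. Within it, a step of 12 probes, chr16:35394938-35490973, reached 1.08, 1.09 and 1.11, the highest segment on chromosome 16. That step covers parts of Pdia5, a disulfide isomerase gene, and Sema5b, which encodes a guidance cue for axons. Neighbouring Adcy5, an adenylyl cyclase gene, stood at 0.73, 0.71 and 0.72. The calcium-sensing receptor gene Casr and the T-cell costimulator gene Cd86 lie in the second stretch.

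The remaining 8 gains lay further along the chromosome. One, chr16:61122798-62168101, measured 0.40, 0.43 and 0.41 over 37 probes and has no named gene. With normexp-corrected signals its mean was 0.28, short of the threshold. Another, chr16:72573681-74884029, measured 0.56, 0.56 and 0.57 and holds Robo1 and Robo2, the receptors for Slit in axon guidance, at means of 0.56 ± 0.013 and 0.54 ± 0.013 (n = 3). The longest, chr16:87902299-92107951 (497 probes), measured 0.63, 0.63 and 0.64. It holds the Rac exchange factor gene Tiam1 (25 probes, at 0.63, 0.64 and 0.68), the superoxide dismutase gene Sod1 (2 probes, at 0.67, 0.73 and 0.58) and Olig2, a factor of the oligodendrocyte lineage (1 probe, at 0.80, 0.97 and 0.88). Olig1 in the same gain, also with 1 probe, stood lower, at 0.39, 0.31 and 0.67. The others were chr16:70121762-71137525 with Gbe1 (0.49, 0.55 and 0.54), chr16:71374751-72068942 (0.50, 0.55 and 0.55), chr16:85211255-85346112 with Cyyr1 (0.62, 0.55 and 0.56), chr16:93147926-93513280 with Setd4 and Cbr1 (0.61, 0.58 and 0.63) and chr16:94238889-94349853 with Hlcs (0.69, 0.61 and 0.69). Genes between the gains stayed near 0, such as App, the amyloid precursor gene, at 0.066, 0.069 and 0.043.

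**Figure D3:**
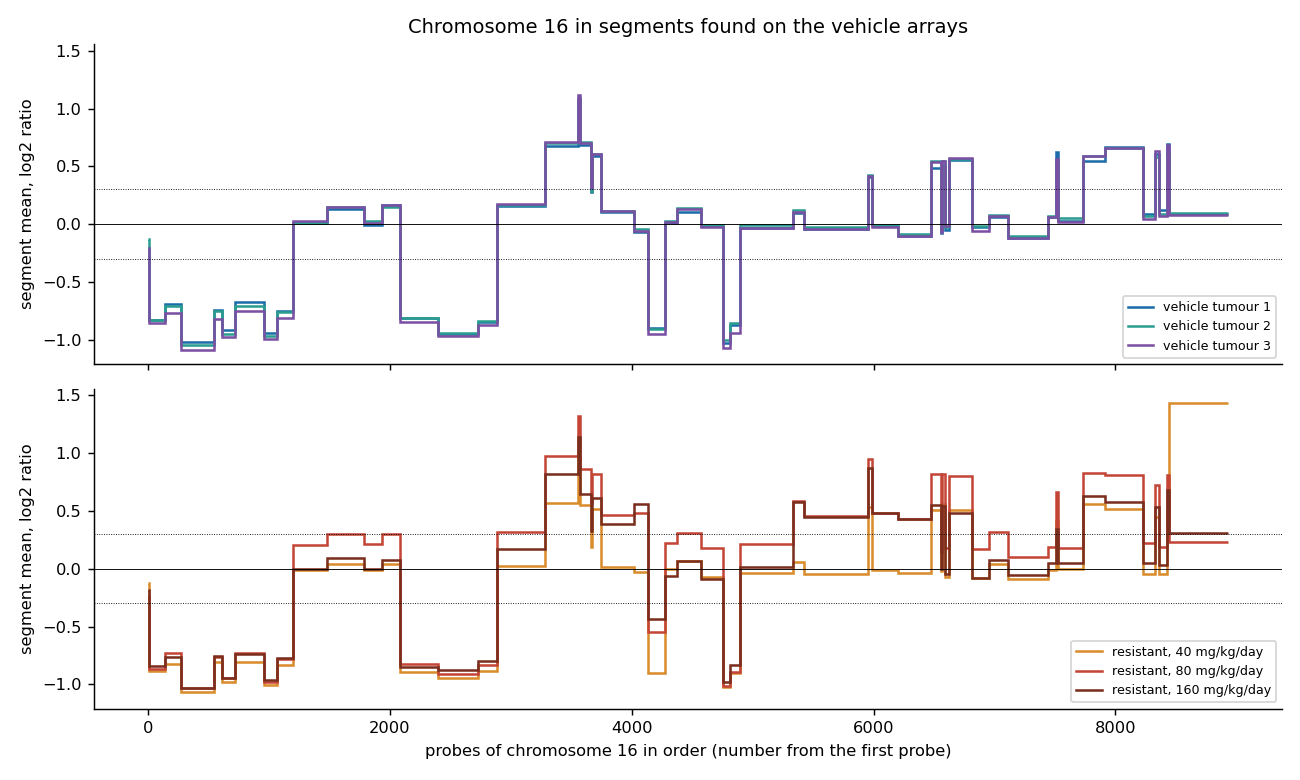
Mean log2 ratio of each chromosome 16 segment (vertical axis) along the probes in order (horizontal axis, number from the first probe), for the vehicle tumours in the top panel and the resistant tumours in the bottom panel; dotted lines mark 0.3 and -0.3. The 3 vehicle lines coincide through lost segments between -1.05 and -0.71 and gained segments between 0.41 and 1.09, and the resistant lines repeat these steps with other levels in between.

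The 14 regions on chromosome 16 have 28 edges. The breakpoints were fitted on the 3 arrays together, so their shared position and direction are fixed by the method. The mean of the 10 probes after an edge less that of the 10 before, as a description, differed between the tumours by a median of 0.081 and at most by 0.24. The probes on both sides of an edge were 4.2 to 46.9 kb apart (median 11.6 kb), which bounds how finely it can be placed. At 10 of the 28 edges the probes on both sides carried the same gene or clone name. How often other neighbouring probes share a name was not measured, so this count is a description. The names were gene symbols at the gain starts in Robo1, between 72569417 and 72573681, and in Grik1, a kainate receptor gene, between 87895657 and 87902299. They were also gene symbols at the gain ends in Cyyr1 and in Hlcs, the gene of a biotin ligase. At the rest of these edges they were clone names. Grik1 had 68.5% and Robo1 94.5% of its probes inside the gain.

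Outside chromosomes 6 and 16, 8 short gains (3.33 Mb) and 14 short losses (2.98 Mb) were shared, on 475 probes in all. Their lengths ran from 10.1 to 1311 kb, and in 17 of the 22 the median of the probes also passed 0.3 on all 3 arrays. In the other 5 the median missed 0.3 on at least 1 array. With normexp-corrected signals the mean of 6 of the 22 regions was under 0.3 in size or of the other sign. Some of these regions had ratios larger in size than any on chromosome 6. The loss chr13:61844890-62085211 measured -1.23, -1.23 and -1.32 over 19 probes, with the first 11 at -1.71, -1.63 and -1.79, and its mean over tumours went from -1.26 to -0.72 with normexp-corrected signals. The loss chr9:19030333-19096325, with the olfactory receptor gene Olfr845, measured -1.25, -1.29 and -1.43, but its probes varied with an SD of 1.70 and had medians of only -0.49, -0.61 and -0.54. Its mean over tumours went from -1.33 to -0.70 with normexp-corrected signals.

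The loss chr11:116564047-116586325 measured -1.28, -1.16 and -1.12 over 6 probes and touches the sialyltransferase gene St6galnac1, of whose 2 probes 1 lies inside. The loss chr17:20960311-20978669, with the pheromone receptor gene V1rf2, measured -1.09, -0.93 and -0.99. Among gains, chr17:12916773-13345866, with Tcp10c, measured 0.74, 0.79 and 0.75, and its last 6 probes 1.12, 1.11 and 1.08. Several of these genes belong to families with many near-identical copies, where a probe can report more than 1 copy.

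Other short losses were shallower. The loss chr14:68212568-68418241 stood at -0.58, -0.56 and -0.57 over 32 probes with an SD of 0.14 among them in tumour 1, and holds the lysyl oxidase-like gene Loxl2 (-0.61, -0.63 and -0.59), Entpd4 (-0.48, -0.47 and -0.54) and part of Slc25a37, which encodes a mitochondrial iron importer. The loss chr18:9805841-10016625 stood at -0.52, -0.55 and -0.57, with an SD of 0.30 among its 25 probes in tumour 1, and holds Thoc1, of the THO complex (-0.54, -0.54 and -0.57), and most of the deubiquitinase gene Usp14 (-0.54, -0.56 and -0.57). The loss chr17:6180566-6408985 stood at -0.44, -0.40 and -0.43 and holds much of Sytl3. With normexp-corrected signals its mean was -0.26, short of the threshold. Each is narrower than a 1 Mb window.

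**Figure D4:**
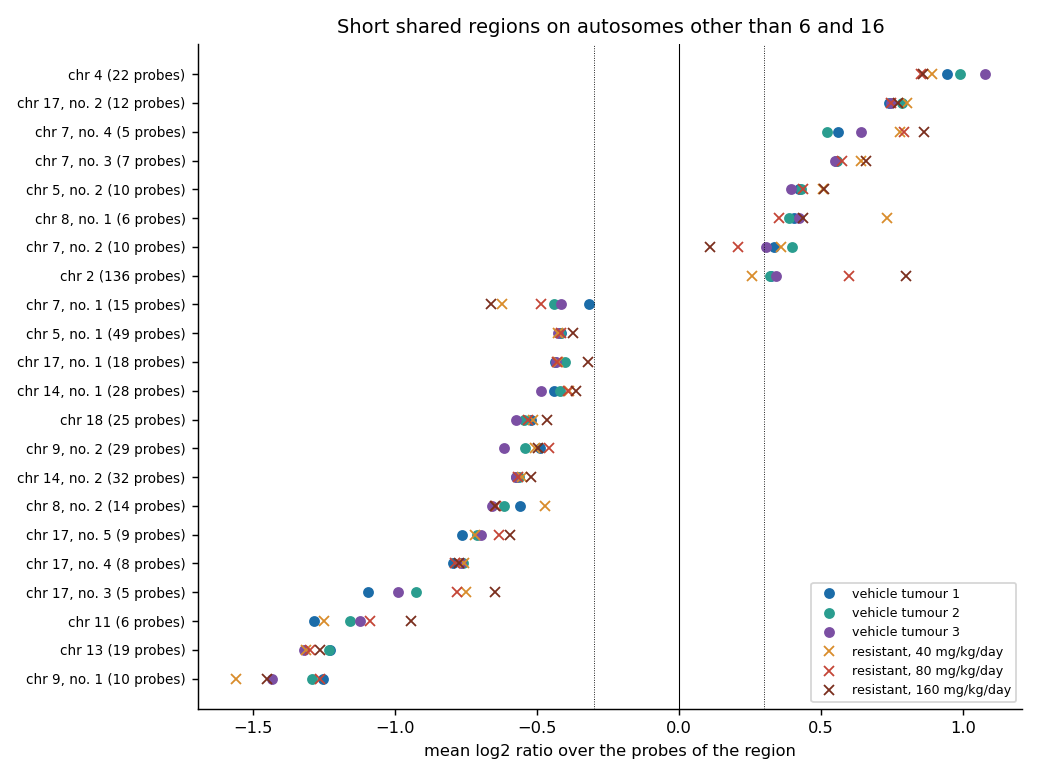
Mean log2 ratio over the probes (horizontal axis) of each of the 22 short shared regions outside chromosomes 6 and 16 (vertical axis, by chromosome, number in order along it and number of probes); circles are vehicle tumours, crosses resistant tumours by dose, and dotted lines mark 0.3 and -0.3. Circles and crosses lie close together in most regions, and the crosses of the chromosome 2 region and the second chromosome 7 region are spread across the threshold.

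The resistant arrays took no part in choosing the regions. Of the 38 regions, 36 also passed 0.3 with the same sign on all 3 resistant arrays. By segment, all 29 shared losses (100%) and 53 of 55 shared gains (96.4%) did so, against 5 (0.926%) and 4 (0.741%) of the 540 segments that were neither in vehicle tumours. Segments are not independent, since many are adjacent pieces of 1 change. Of the gains, 33 lay on chromosome 6 and 13 on chromosome 16, as did 14 of the losses on chromosome 16. These shares are therefore descriptions. The regions that did not pass on all 3 resistant arrays were chr2:155559501-156592885 and chr7:104102266-104232330. The first stood at 0.32, 0.32 and 0.34 in vehicle tumours against 0.26, 0.60 and 0.80 in order of dose in resistant ones. The second, with the antiviral family genes Trim34 and Trim6, stood at 0.33, 0.40 and 0.31 against 0.36, 0.21 and 0.11. Both are among the 5 regions whose medians missed 0.3. The chromosome 2 region had medians of 0.21, 0.24 and 0.26 in vehicle tumours, and its mean was 0.29 without dim or saturated probes and 0.24 with normexp-corrected signals. The Trim34 region was at 0.15 with normexp-corrected signals. All 6 arrays share the liver DNA. A change acquired by the tumours and an inherited difference between their mouse and the liver's therefore cannot be told apart from these arrays.

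Resistant and vehicle tumours were compared window by window with limma. Of 2396 windows, 12 were higher (0.501%) and 98 lower (4.09%) in resistant tumours, together 4.59%. These counts are unsteady. Without any 1 of the vehicle tumours they were 0 and 24, without the resistant tumours at 40, 80 or 160 mg/kg/day they were 150 and 202, 321 and 216, and 2 and 25, and with normexp-corrected signals no window passed. Of 153 windows inside shared gains 2 passed, both on chromosome 6 and lower in resistant tumours, and 48 (31.4%) had an unadjusted p below 0.05, as did 730 (30.5%) of all windows. Of the 20 windows inside shared losses none passed by limma (lowest adjusted p = 0.147), and 2 had an unadjusted p below 0.05. The median log2 ratio of gained windows was 0.49 in vehicle and 0.50 in resistant tumours, and that of lost windows -0.90 and -0.87.

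In 16 of the 38 regions, 8 of them on chromosome 16, at least 1 resistant array lay 0.2 or more from the vehicle mean. Both widest gaps on chromosome 16 are given here. The Lsamp loss was -0.90 at 40 mg/kg/day, as in vehicle tumours, but -0.54 and -0.43 at 80 and 160 mg/kg/day. Gap43 at its end stayed at -0.97, -0.96 and -1.04. The segment before the Lsamp loss, chr16:39116095-41018888, is in no shared region and also lay higher at 80 and 160 mg/kg/day. It stood at -0.029, 0.49 and 0.56 in order of dose, against a vehicle mean of -0.057. The segment after the loss, chr16:42364010-43361776, stood at 0.00068, 0.22 and -0.059, against 0.017. The gain at chr16:61122798-62168101 was 0.54, 0.95 and 0.87 in resistant tumours, against 0.40 to 0.43 in vehicle tumours. Its flanking segments also lay higher at 80 and 160 mg/kg/day, so the shift was not limited to the gain. In order of dose, chr16:56454170-61103115 stood at -0.041, 0.46 and 0.45, against a vehicle mean of -0.040. On the other side, chr16:62193611-65037425 stood at -0.0063, 0.49 and 0.48, against -0.014. Neither the Lsamp loss nor this gain had a window that passed limma. The limma adjusted p was 0.172 for the window inside the Lsamp loss, and no window lay within the gain.

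The deleted genes of the genotype were checked at their own probes. Trp53 (chr11:69396256-69407437, 3 probes) averaged 0.25, 0.096 and 0.20 in tumours 1, 2 and 3, against 0.13, 0.13 and 0.12 over the 40 flanking probes. Its lowest single value was -0.18. Ptch1 (chr13:63527257-63569698, 7 probes) averaged 0.075, 0.098 and 0.064, against 0.037, 0.066 and 0.059 at its flanks. No loss was measured at either gene. The labels do not state which part of each gene was removed, and probes outside it check nothing.

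Copy number was then read at 114 listed genes, of which 106 had probes. Of these, 7 lay in shared gains (6.60%) and 3 in shared losses (2.83%), where 1582 (6.38%) and 238 (0.96%) of the 24789 gene names on the array did. Listed genes were placed by the segment that holds them, while gene names were counted by having probes inside a shared region. The shares are therefore not quite like for like, since Kcnd2, listed as neither, also has probes in a shared gain. The share in gains was near that of all gene names, and 3 genes are too few to read the share in losses. All 7 gained genes lay on chromosome 6 and the 3 lost genes, Crebbp, Trp63 and Bcl6, on chromosome 16. The medians of the segments that hold the genes were near 0 in each of the 6 lists, between 0.044 and 0.085.

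Of 17 Hedgehog genes with probes, Smo alone lay in a shared region. The repressor gene Sufu (13 probes) measured 0.13, 0.21 and 0.21, the factor Gli3 (35 probes) -0.18, -0.11 and -0.16, and the target and effector Gli1 (2 probes) 0.15, 0.16 and 0.29. The co-receptor gene Boc, on chromosome 16 between losses, stood at 0.11, 0.043 and 0.11. None of the 25 genes of the PI3K pathway, which relays growth factor signals, lay in a shared region. The catalytic subunit gene Pik3ca (4 probes) measured 0.038, 0.095 and 0.096, and the receptor gene Igf1r (37 probes) 0.075, 0.057 and 0.071.

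Of 16 cell cycle genes, Ccnd2 alone was in a shared gain. The kinase gene Cdk6 (20 probes) stood at -0.025, -0.055 and -0.0073 and the tumour suppressor Rb1 (23 probes) at -0.026, 0.048 and 0.014. The amplification targets Mycn (0.099, 0.0055 and 0.058) and Myc (0.16, -0.025 and 0.045) had 1 probe each, near 0. Some other genes of this list with 1 or 2 probes had means above 0.3 on some arrays. The segments of the list's genes outside shared regions lay between -0.073 and 0.16. Of 14 p53 pathway genes Trp63 was lost, and the p53 inhibitor genes Mdm2 (3 probes, mean 0.13 ± 0.11, n = 3) and Mdm4 (7 probes, 0.044, 0.076 and 0.050) were not in shared regions. Of 14 genes of granule neurons or medulloblastoma, Crebbp was lost. Of 20 growth signalling genes, 5 (25%) were gained and 1 (5%), Bcl6, was lost, against 6.38% and 0.96% of all gene names. All 5 gained genes lay on chromosome 6, so they are not independent, and no enrichment is read from this list.

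**Figure D5:**
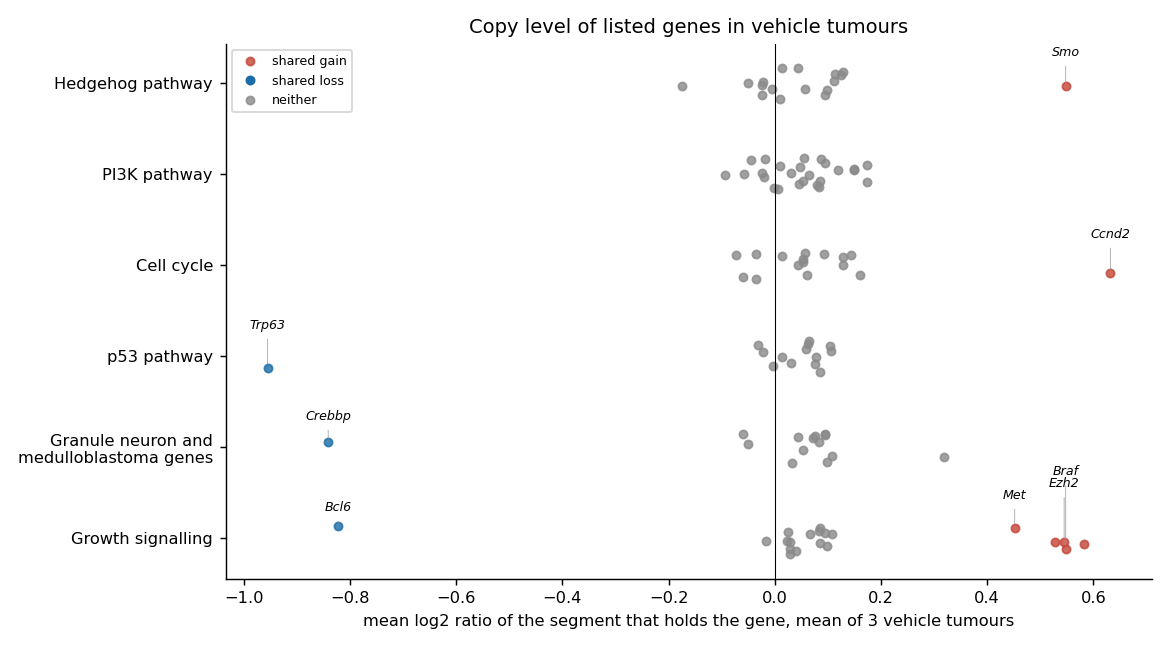
Mean log2 ratio of the segment that holds each of the 106 listed genes (horizontal axis, mean of the 3 vehicle tumours), by gene list (vertical axis, points spread within a list only for legibility); red marks shared gains, blue shared losses and grey neither. The 7 red genes lie between 0.45 and 0.63, the 3 blue genes between -0.95 and -0.82, and all grey genes but Kcnd2, at 0.32, between -0.17 and 0.17.

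Differences among the vehicle tumours were few. In 1 of 624 segments the 3 means spanned 0.3 or more with at least 1 past 0.3. This was chr4:25377962-25491773, 6 probes with no gene name, at 0.28, 0.47 and 0.71 in tumours 1, 2 and 3 and 0.49, 0.73 and 0.43 in resistant tumours in order of dose. With 1 array per tumour the difference has no replicate. Just outside the rule for shared regions lay chr9:46630511-46974673 (0.28, 0.42 and 0.34) and chr14:35790154-36239159 (0.28, 0.29 and 0.32), and just inside lay chr7:104102266-104232330 (0.33, 0.40 and 0.31) and the chromosome 2 gain (0.32, 0.32 and 0.34).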

How the data were processed

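Intensities are Agilent Feature Extraction 9.5.3.1 processed signals, which that program had corrected for background and dye per the file headers. Probe positions are those the files give in build mm8. The authors' deposited value table of these arrays holds log10 ratios, which were turned to log2 for 1 alternative. Log2 of Cy5 (tumour) over Cy3 (liver) was taken, with no loess or quantile step. Control and outlier spots were left out, probes of 1 name averaged, and each array centred on its autosomal median. Windows of 1 Mb needed 5 probes, and 2396 were tested with limma 3.58.1 in R 4.3.3, two-sided, with Benjamini-Hochberg adjustment and a threshold of 0.05. With 3 arrays the test against liver had 2 residual degrees of freedom before moderation, and that between groups had 4. Windows count as inside a region when at least 0.9 of their probes are. Segments came from a penalised least-squares fit in which each breakpoint cost 6 times the log of the number of probes, with values held within 3 noise SDs of an 11-probe running median. No 2 arrays held identical values.

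The rule for named genes took Trp53, Ptch1, the 6 lists and, for the 10 largest shared segments outside chromosome 6, up to 6 genes with most probes. Other genes, and the 10-probe steps at edges, were chosen after their values were seen. The tumours and lists were chosen with earlier results of these data known. Genes are named as in the files. Chromosome X was not analysed here, and some genes that the rule names are not reported here. The methods were run on simulated data with independent noise, without far probes or a tie to gene content. That run therefore says nothing about such features of the real arrays. Alternatives changed the signal, centring, filters, windows, thresholds, penalty, weights and replicates. Scripts ran in Python 3.11.15 with numba 0.67.0, pandas 2.3.3 and numpy 2.4.6.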

Additional observations from a re-analysis of the deposited data

How the results depend on the processing

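The median of chromosome 6 stayed between 0.48 and 0.51 under every alternative, and leaving out each vehicle tumour in turn gave 0.48 to 0.49. Normexp-corrected signals gave 423 higher windows, no window between groups (0 higher, 0 lower), 0 segments that differ among vehicle tumours, 0.35 for Trp53 and 0.061 for Ptch1. With them 1 of the 38 regions, chr7:106899162-106924278 (5 probes), reversed from 0.57 to -0.21, another 35 moved by more than the spread between tumours, and the median ratio to the first value was 0.859. The cause was not tested. Windows of 0.5 Mb, being more, gave 1685 higher and 2253 lower, with 324 and 58 past 0.3. Windows of 2 Mb gave 463 and 594, with 81 and 14 past 0.3. A size of 0.2 gave 122 lower windows and 57.5 Mb lost. All 6 arrays in 1 fit, with the noisier ones included, gave 570 higher and 732 lower.

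Centring on the mode gave 7 autosomes higher and 4 lower. Between resistant and vehicle tumours it gave 3 windows higher and 40 lower, array weights 3 and 28, windows of 0.5 Mb 28 and 192, and windows of 2 Mb 2 and 40. Leaving out 1 tumour in turn gave 0 to 321 higher and 24 to 216 lower. For regions, 0.5 times the penalty gave 41 gained and 32 lost with 3 segments that differ, and 2 times the penalty gave 12 gained and 0 that differ. With at least 20 probes a segment 0 differed. Each array by itself gave 9 gained and 9 lost. Without 1 vehicle tumour, 13 to 18 regions were gained and 14 to 15 lost, over 161.1 to 162.1 Mb and 24.0 to 24.6 Mb. With segment medians in place of means, an alternative chosen after seeing the data, 33 of 38 regions passed. No paired analysis was possible because the labels tie no resistant tumour to a vehicle tumour. Since segments and windows needed at least 5 probes, shifts in short regions of under 5 probes cannot be called.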

Other observations

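Single probes far from 0 were counted by chromosome and by region. Of 220478 probes with values on all 6 arrays, 553 stood at or below -1 in all 3 vehicle tumours, 381 of them on chromosome 16, where the shared losses lie, and 219 stood at or above 1, 8 of them on chromosome 16. Outside the shared regions, 144 low and 190 high probes remained, of which 136 and 178 had no such probe beside them, and 115 and 164 stood past the same value in all 3 resistant tumours. The highest was a probe in Raly, a gene of an RNA-binding protein, at 5.84, 5.26 and 5.90 in vehicle tumours 1, 2 and 3 and 5.27, 5.72 and 5.61 in resistant tumours in order of dose. The lowest was a probe in Dpp6, a gene of a potassium channel subunit, at -4.81, -4.76 and -4.15, and -5.35, -4.35 and -4.29. Far probes inside the shared regions, 409 low and 29 high, enter the means given there.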
